A study of Mus musculus with 6 samples.

Results

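The 9 chemokine genes described here are Ccl2, Ccl3, Ccl4, Ccl5, Ccl6, Ccl9 and Ccl12 of the CC family and Cxcl2 and Cxcl10 of the CXC family. They were taken by symbol from the 17042 genes listed in all tables of the series, and all 9 were found. The series profiled single cells of mouse spinal cord by Drop-seq, in which each captured RNA molecule is labelled by its cell's barcode and by a tag of its own (UMI), so that UMIs count molecules and not reads. SOD1-Nec cords carried the genotype SOD1-G93A, a mutant SOD1 transgene used to model amyotrophic lateral sclerosis, and received Necrostatin-1s, which blocks the kinase activity of RIPK1. SOD1-Veh cords carried the same genotype and received vehicle, and WT-Veh cords were wild type and received vehicle. Each group had 2 libraries. Age, dose, the transgene's promoter and how many animals made a library were not stated in the labels. Nothing says that the 2 libraries of a group are separate animals, so a p-value reflects library-to-library spread, which may be technical. All cords were digested with Accutase, cleared of myelin and passed through a density gradient that enriches live cells.

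Chemokines are small secreted proteins that direct the movement of leukocytes through receptors on their surface. In CC chemokines the first pair of conserved cysteines is adjacent, and in CXC chemokines another residue stands between them. Ccl3 and Ccl4 encode the macrophage inflammatory proteins 1-alpha and 1-beta and are made by microglia and other macrophages when they are activated. Ccl2 and Ccl12 attract monocytes through Ccr2, Ccl5 is made by T and NK cells, and Ccl6 and Ccl9 are rodent chemokines of myeloid cells that bind Ccr1. Cxcl2 attracts neutrophils through Cxcr2, and Cxcl10 is an interferon-induced ligand of Cxcr3. Several of these genes are switched on through NF-kappaB, a transcription factor downstream of tumour necrosis factor, whose receptor also signals through RIPK1.

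The cysteine motif that names the families is shown in the coding strand of the members the results turn on, as 5 codons before the first of the pair, the pair itself with its cysteine codons in capitals, and 8 codons after it. The 7 CC genes have 0 codons between these cysteines and the 2 CXC genes have 1. Sequences are from the GENCODE transcripts of the GRCm38 assembly, in which the CC members lie on chromosome 11 and Cxcl2 and Cxcl10 on chromosome 5.
Ccl3: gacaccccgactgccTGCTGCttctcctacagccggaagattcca
Ccl4: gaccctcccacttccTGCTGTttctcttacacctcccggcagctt
Ccl6: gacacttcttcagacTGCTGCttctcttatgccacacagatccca
Cxcl2: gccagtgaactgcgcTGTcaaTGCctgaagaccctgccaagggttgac
Cxcl10: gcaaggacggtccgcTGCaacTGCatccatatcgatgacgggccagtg
Ccl3 and Ccl4 share 68.09% of aligned coding bases, and the longest run of bases common to their whole transcripts is 9. Ccl6 and Ccl9 share 65.05% of aligned coding bases, with a run of 25 bases common to their whole transcripts. How reads that fit several genes were counted is not stated, so the split of UMIs between Ccl6 and Ccl9 is the least certain of these pairs.

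The tables held 1508618 to 1767205 UMIs per library. Cells were kept from 200 genes upwards if mitochondrial UMIs did not pass 20%, and numbered 661 and 794 in SOD1-Nec, 399 and 437 in SOD1-Veh, and 515 and 554 in WT-Veh, at a median of 526 to 727 UMIs. Over all barcodes Sod1, whose entry does not separate transgene from mouse RNA, stood at 4447 and 5388 CPM (UMIs scaled to a common library total) in SOD1-Nec, 4138 and 5312 in SOD1-Veh, and 213 and 179 in WT-Veh, as the labels have it. Cells were clustered with 27 chemokine genes left out, so that no member shaped a cluster, and clusters were named from marker genes. Microglia-like cells numbered 119 and 155 in SOD1-Nec, 84 and 77 in SOD1-Veh, and 103 and 95 in WT-Veh. In these cells 15 of 15 microglial markers were detected in every library. Every class is named this way and is to be read as cells like the type named. Only 1 retained barcode was found in over 1 library. Skeletal muscle cells came from the SOD1-Veh libraries alone (17 and 51 cells), and 165 of 258 neurons from WT-Veh 2.

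By class of cell the 9 RNAs fell into a microglial, a lymphoid and a myeloid set. Of the UMIs in retained cells, microglia held 83.5% of 1852 for Ccl3, 83.8% of 2091 for Ccl4, 83.6% of 489 for Ccl12, 78.9% of 90 for Cxcl10 and 73.0% of 397 for Ccl2, while they made up 17.1% to 21.1% of the cells of a library. For Ccl6 the share was 22.8% of 907 UMIs, for Ccl9 27.3% of 407, for Cxcl2 14.2% of 275 and for Ccl5 0.783% of 383. On the CPM scale of UMIs summed by class, Ccl3 averaged 3125 ± 898 in microglia and 880 ± 1104 in endothelial cells, the next class (SD, n = 6 libraries). Ccl4 averaged 3560 ± 1402 CPM in microglia and 1046 ± 964 CPM in endothelial cells. The library ranges of these 2 classes overlapped, since 9 endothelial cells of SOD1-Veh 1 held 52 Ccl3 and 48 Ccl4 UMIs, which sat in 4 and 3 cells. Ccl12 averaged 831 ± 278 CPM in microglia against 123 ± 111 in endothelial cells, with no overlap of ranges. Above both stood a cluster of 38 cells led by MHC class II genes, which was left without a name, at 1175 ± 2417 CPM, of which 1 cell of WT-Veh 2 held 26 UMIs.

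**Figure D1:**
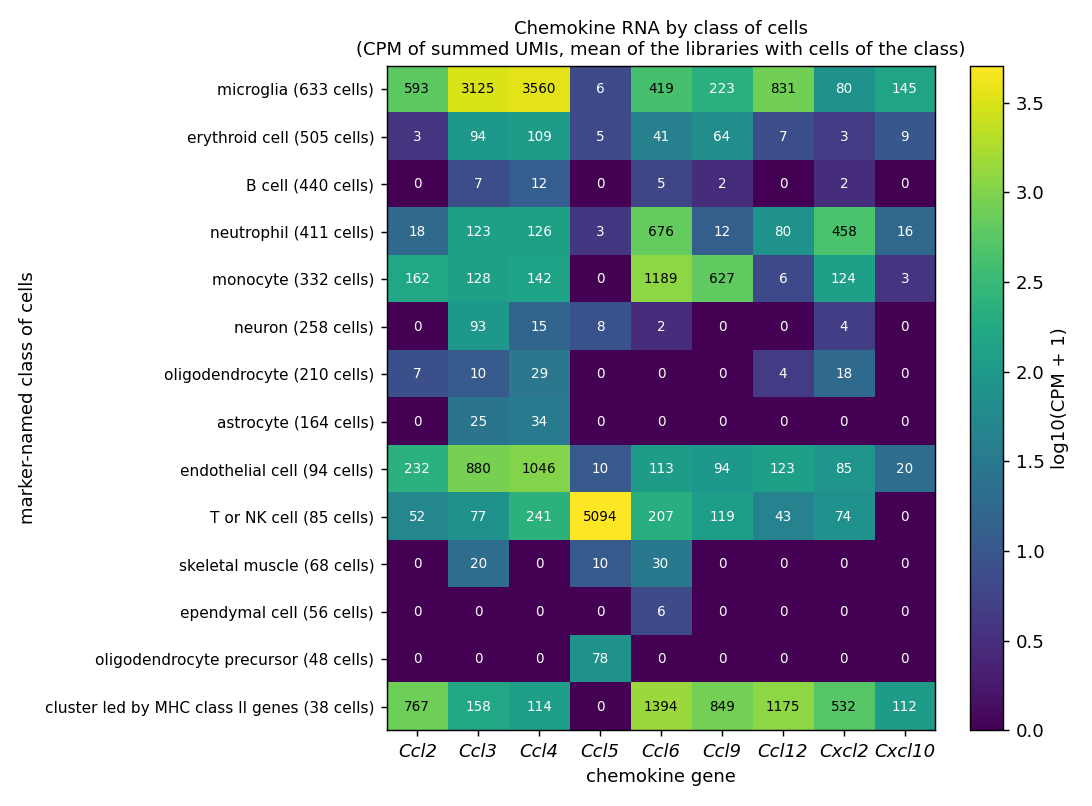
Mean CPM of each chemokine RNA by class of cells, with classes ordered by size and colour on a log10(CPM + 1) scale; each number is the mean over libraries with cells of the class. Ccl3 and Ccl4 are brightest in microglia at 3125 and 3560 CPM, Ccl5 in T or NK cells at 5094 CPM, and Ccl6 and Ccl9 in monocytes and the cluster led by MHC class II genes.

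Ccl5 was a T and NK cell RNA. It had 33 and 34 UMIs in the 21 and 18 T or NK cells of SOD1-Nec, 65 and 97 in the 11 and 10 of SOD1-Veh, and 36 and 105 in the 12 and 13 of WT-Veh. These are 3253 and 3345 CPM in SOD1-Nec, 7312 and 6853 CPM in SOD1-Veh, and 2921 and 6880 CPM in WT-Veh. SOD1-Nec lay below SOD1-Veh without overlap and within the range of WT-Veh. With fewer than 20 cells in most libraries the class was not tested. Its lowest library stood above the highest library of any other class, the nearest being oligodendrocyte precursors at 78.0 ± 191 CPM. A single cell held 53 of the 383 UMIs. The class depended on the clustering. At a lower resolution of 0.5 it held 11 and 14 cells in SOD1-Nec, 9 and 9 in SOD1-Veh, and 11 and 11 in WT-Veh. The part of this in the Ccl5 levels was not tested.

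Ccl6, Ccl9 and Cxcl2 belonged mainly to blood-derived myeloid cells. Ccl6 averaged 1394 ± 738 CPM in the cluster led by MHC class II genes, 1189 ± 250 in monocytes, 676 ± 362 in neutrophils and 419 ± 218 in microglia (SD, n = 6), and the ranges of neighbours in this order overlapped. Ccl9 averaged 849 ± 345 CPM in the MHC class II cluster, 627 ± 97.7 in monocytes and 223 ± 61.5 in microglia, and the monocyte and microglial ranges did not overlap. Cxcl2 averaged 532 ± 659 CPM in the MHC class II cluster, 458 ± 214 in neutrophils, 124 ± 97.1 in monocytes and 79.9 ± 70.3 in microglia, with overlap throughout. Cxcl10 was sparse everywhere, at 145 ± 54.7 CPM in microglia and 112 ± 276 CPM in the MHC class II cluster. Ccl2 averaged 767 ± 1332 CPM in that cluster, where 14 of its UMIs sat in 1 cell of WT-Veh 2, then 593 ± 247 CPM in microglia, 232 ± 182 in endothelial cells and 162 ± 85.1 in monocytes. These orders are descriptions and were not tested.

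In microglia the question of how chemokine RNAs differ with the SOD1 genotype rests on SOD1-Veh against WT-Veh. Levels here and in the next comparisons are normalised CPM, scaled by the TMM factors of edgeR. Ccl4 stood at 3811 and 5861 normalised CPM in SOD1-Veh, from 348 and 395 UMIs, and at 2334 and 1747 in WT-Veh, from 185 and 159 UMIs. Both SOD1-Veh libraries lay above both WT-Veh libraries. The group means were 4836 ± 1449 in SOD1-Veh and 2041 ± 415 in WT-Veh (SD, n = 2), and the fitted log2 fold change was 1.24 ± 0.22 (SE; edgeR adjusted p = 6.13e-05). Within the libraries numbered 1 it was 0.70 and within those numbered 2 it was 1.73.

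Ccl6 stood at 482 and 801 normalised CPM in SOD1-Veh, from 44 and 54 UMIs, and at 239.7 and 198 in WT-Veh, from 19 and 18 UMIs. The groups did not overlap, and the log2 fold change was 1.52 ± 0.33 (edgeR adjusted p = 0.00182). Without SOD1-Veh 2 it was 1.13 (adjusted p = 0.149), and DESeq2 gave an adjusted p of 0.0838. In this and each later fit without a library, the library left alone in its group is assumed to vary like those of the other groups. Ccl3 stood at 3779 and 4629.5 normalised CPM in SOD1-Veh and at 2877 and 2252 in WT-Veh, again without overlap. Its log2 fold change was 0.71 ± 0.20 (edgeR adjusted p = 0.0494), a call at the edge of the threshold that was lost in 13 of 16 alternatives, with changes of 0.53 to 0.85. These include the fits without SOD1-Nec 1 (0.69), SOD1-Nec 2 (0.68), SOD1-Veh 2 (0.55), WT-Veh 1 (0.85) or WT-Veh 2 (0.53).

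These 3 were the members called among the 7 tested in microglia, and all 3 rose. Of all 1579 genes tested 2.03% were called and 1.52% rose. Over the 7 members the median log2 fold change was 0.34, against 0.02 over all genes. Of the other 4, Ccl9 gave 0.34 ± 0.41 (edgeR adjusted p = 0.831), Cxcl10 0.25 ± 0.45 (0.882), Ccl12 -0.04 ± 0.27 (0.964) and Ccl2 -0.27 ± 0.30 (0.826). Cxcl10 had 186 and 193 normalised CPM in SOD1-Veh against 151 and 165 in WT-Veh, from 12 to 17 UMIs per library. Ccl12, the rodent monocyte attractant, had 931 and 846 in SOD1-Veh against 1173 and 670.2 in WT-Veh. Ccl2 had 296 and 935 in SOD1-Veh against 580.4 and 824 in WT-Veh, so its 2 SOD1-Veh libraries lay outside the WT-Veh range on opposite sides, and without SOD1-Veh 2 its change was -1.27 (adjusted p = 0.0190).

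Marker RNA of other cells was measured in the same microglia, as summed CPM of each list. The monocyte list came to 593 and 494 CPM in SOD1-Veh against 238 and 250.3 in WT-Veh. Of the 9 measured genes of this list 3 to 4 were detected in these libraries, and Ccr2, which defines inflammatory monocytes, was at 0 in all 6 libraries. Ly6c2 was detected in both SOD1-Veh libraries and at 0 in both WT-Veh libraries, and S100a4 the reverse. Of these libraries, F13a1 and Fn1 were detected in SOD1-Veh 1 alone and Vcan in WT-Veh 1 alone. The part of monocyte RNA in the difference of Ccl6, which is abundant in monocytes, was not tested. The neutrophil list came to 3605 and 1003 CPM in SOD1-Veh against 2042 and 967 in WT-Veh, with 8 to 11 of 13 genes detected and Ly6g at 0 throughout. Border macrophage markers came to 194 and 116 CPM in SOD1-Veh against 188 and 148 in WT-Veh, with Cd163, Lyve1 and Cbr2 at 0 in every library.

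**Figure D2:**
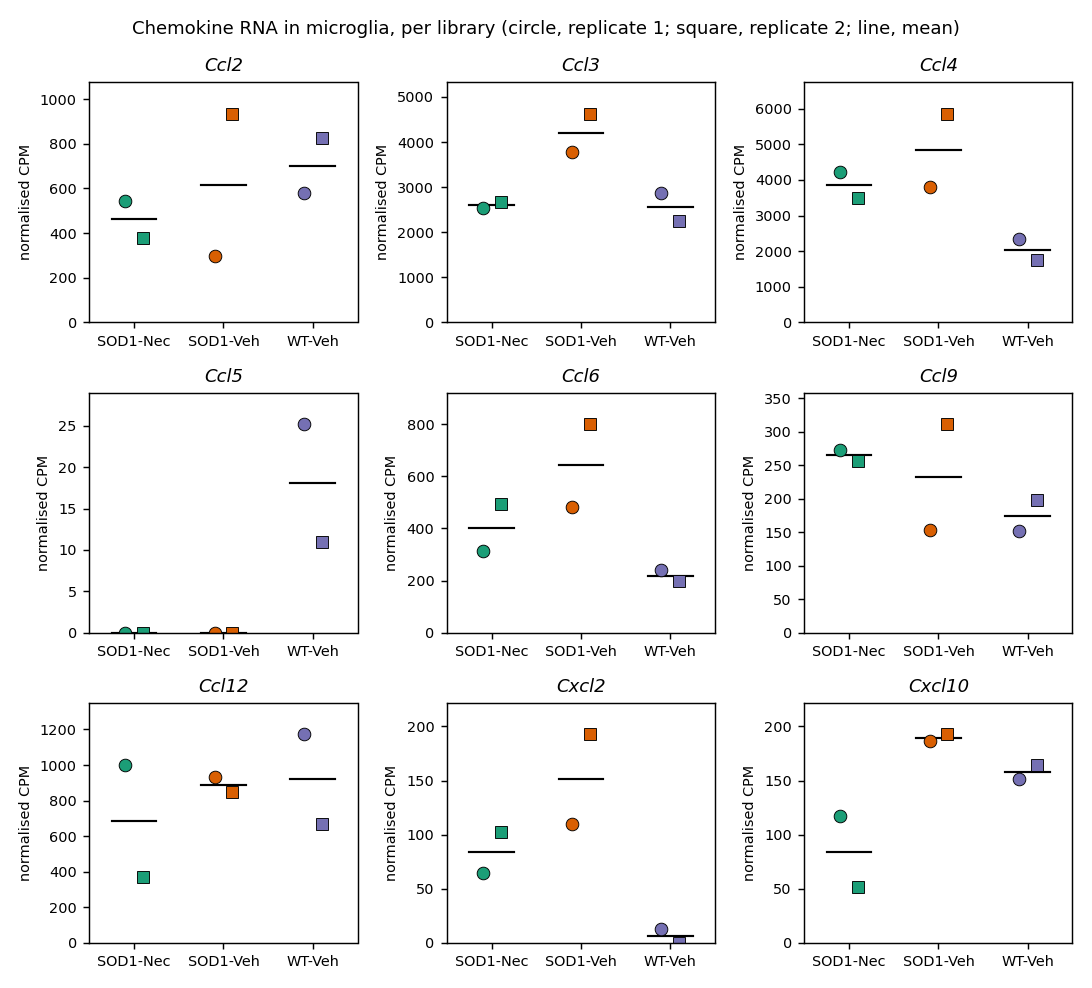
Normalised CPM of each chemokine in microglia, 1 point per library (circles, replicate 1; squares, replicate 2) and a line at the group mean, with a vertical axis from 0 for each gene. For Ccl4 the SOD1-Veh points at 3811 and 5861 and the SOD1-Nec points at 4219.6 and 3490.2 lie above the WT-Veh points at 2334 and 1747, while for Ccl3 the SOD1-Nec and WT-Veh points overlap below SOD1-Veh.

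What differs under RIPK1 inhibition on the SOD1 background rests on SOD1-Nec against SOD1-Veh. This comparison shares the SOD1-Veh libraries with the comparison above, so the 2 are not independent. Ccl3 had 2545 and 2669 normalised CPM in SOD1-Nec, from 196 and 260 UMIs, against 3779 and 4629.5 in SOD1-Veh, from 345 and 312 UMIs, and the groups did not overlap. It fell by 0.69 ± 0.20 on the log2 scale (edgeR adjusted p = 0.0357), with -0.57 within the libraries numbered 1 and -0.79 within those numbered 2. The call was lost in 10 of 16 alternatives, among them without SOD1-Nec 1 (-0.57), SOD1-Nec 2 (-0.71), SOD1-Veh 2 (-0.53) or WT-Veh 1 (-0.62). Ccl3 was the 1 member called of 7 tested, where 3.74% of 1579 genes were called and 1.46% fell. The median log2 fold change of the 7 was -0.43, against -0.03 over all genes.

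Ccl4 did not pass the test here. It had 4219.6 and 3490.2 normalised CPM in SOD1-Nec and 3811 and 5861 in SOD1-Veh, which overlap, and gave -0.33 ± 0.21 (edgeR adjusted p = 0.519). Ccl6 had 312 and 493 in SOD1-Nec against 482 and 801 in SOD1-Veh and gave -0.63 ± 0.29 (adjusted p = 0.292). Cxcl10 had 117 and 51.3 in SOD1-Nec against 186 and 193 in SOD1-Veh, without overlap, from 9 and 5 UMIs against 17 and 13, and gave -1.22 ± 0.51 (adjusted p = 0.196). Ccl12 had 999.7 and 369.5 in SOD1-Nec against 931 and 846 in SOD1-Veh (-0.43 ± 0.28, adjusted p = 0.543), and the fold change was -1.18 with adjusted p = 0.0344 without SOD1-Nec 1. Ccl2 gave -0.37 ± 0.32 (0.635), and -1.03 with adjusted p = 0.0232 without SOD1-Veh 1. Ccl9 gave 0.23 ± 0.39 (0.856).

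Haemoglobin made up 4.61% and 3.18% of the UMIs in SOD1-Nec microglia against 0.279% and 0.533% in SOD1-Veh, and 2.03% and 1.38% in WT-Veh. The median microglial cell had 519 and 474 UMIs in SOD1-Nec, 826 and 770 in SOD1-Veh, and 594 and 703 in WT-Veh. The microglial marker list came to 27210.5 and 29534 CPM in SOD1-Nec, 34622 and 36377 in SOD1-Veh, and 40679 and 43512 in WT-Veh, and no group overlapped another. The oligodendrocyte list, with 7 to 9 of 10 genes detected and Opalin at 0 in all libraries but WT-Veh 1, came to 12304 and 14095 CPM in SOD1-Nec, 9742 and 10566 in SOD1-Veh, and 8995 and 6427 in WT-Veh. The part of haemoglobin, marker RNA and depth in the differences between groups was not tested.

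Set against WT-Veh, SOD1-Nec microglia had more Ccl4, while for Ccl3 the group means differed by less than the spread of WT-Veh. Ccl4 stood at 3855 ± 516 normalised CPM in SOD1-Nec and 2041 ± 415 in WT-Veh (SD, n = 2), without overlap, and the log2 fold change was 0.90 ± 0.22 (edgeR adjusted p = 0.00446). Within the libraries numbered 1 and 2 it was 0.85 and 0.99. Without WT-Veh 2 it was 0.69 (adjusted p = 0.131), the 1 alternative of 16 that lost the call. Ccl3 stood at 2607 ± 87.8 in SOD1-Nec and 2565 ± 442 in WT-Veh, and its log2 fold change was 0.01 ± 0.21 (adjusted p = 0.990). Ccl4 was the 1 member called of 7 tested, where 7.09% of 1579 genes were called and 4.12% rose, and the median of the 7 was 0.01, against 0.00 over all genes. Ccl6, at 402 ± 128 in SOD1-Nec and 219 ± 29.7 in WT-Veh, gave 0.89 ± 0.34 (adjusted p = 0.102), and 1.45 with adjusted p = 0.00482 when chemokine genes were kept in clustering. The monocyte list came to 829.5 and 779 CPM in SOD1-Nec microglia against 238 and 250.3 in WT-Veh, and its part was not tested. Ccl2 gave -0.64 ± 0.30 (0.212), Cxcl10 -0.97 ± 0.52 (0.286), Ccl9 0.57 ± 0.40 (0.450) and Ccl12 -0.47 ± 0.28 (0.341), the last of which was -1.24 with adjusted p = 0.0166 without SOD1-Nec 1.

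**Figure D3:**
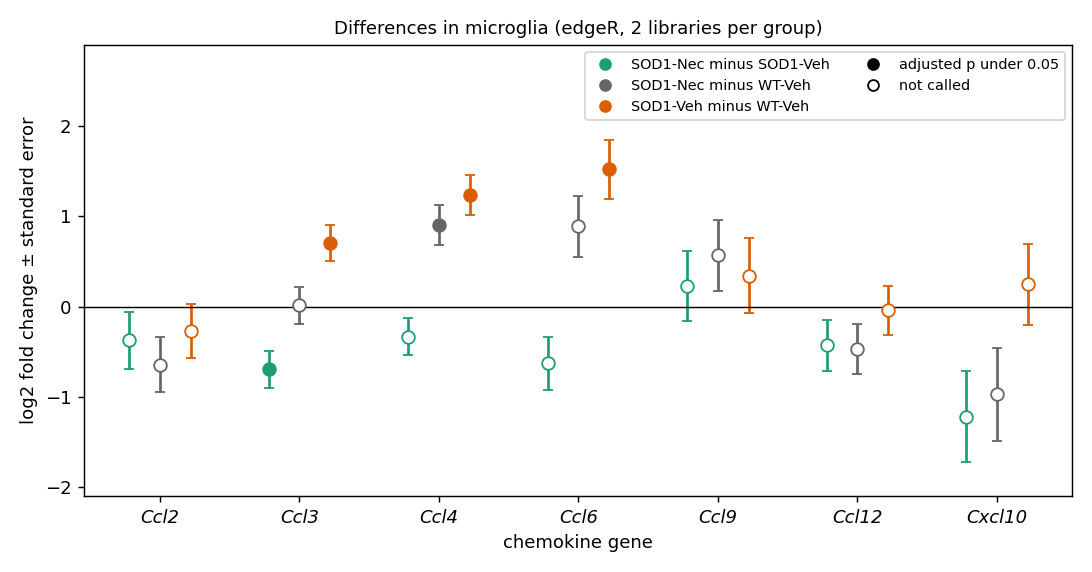
Log2 fold change with its standard error (edgeR, 2 libraries per group) of the 7 chemokines tested in microglia, for SOD1-Nec minus SOD1-Veh, SOD1-Nec minus WT-Veh and SOD1-Veh minus WT-Veh; filled points have an adjusted p under 0.05. Ccl4 is filled at 0.90 and 1.24 against WT-Veh, Ccl3 at -0.69 and 0.71 in the comparisons with SOD1-Veh libraries, and Ccl6 at 1.52 in SOD1-Veh against WT-Veh.

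The balance between Ccl4 and Ccl3 is a ratio within a library and does not depend on how libraries are scaled. Ccl4 made up 62.4% (exact 95% interval 58.1 to 66.6) and 56.7% (52.6 to 60.7) of the Ccl3 and Ccl4 UMIs of SOD1-Nec microglia. The share was 50.2% (46.4 to 54.0) and 55.9% (52.1 to 59.6) in SOD1-Veh microglia, and 44.8% (39.9 to 49.7) and 43.7% (38.5 to 48.9) in WT-Veh microglia. All 4 libraries of SOD1-G93A cords lay above both WT-Veh libraries, and SOD1-Nec lay above SOD1-Veh by a narrow gap. For 2 libraries a group the smallest p of an exact permutation test is 0.333, so no test was made, and intervals cover counting error only. In retained cells other than microglia the share was 66.1% and 49.8% in SOD1-Nec, 49.2% and 53.1% in SOD1-Veh, and 50% and 61.4% in WT-Veh, and there the groups overlapped.

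**Figure D4:**
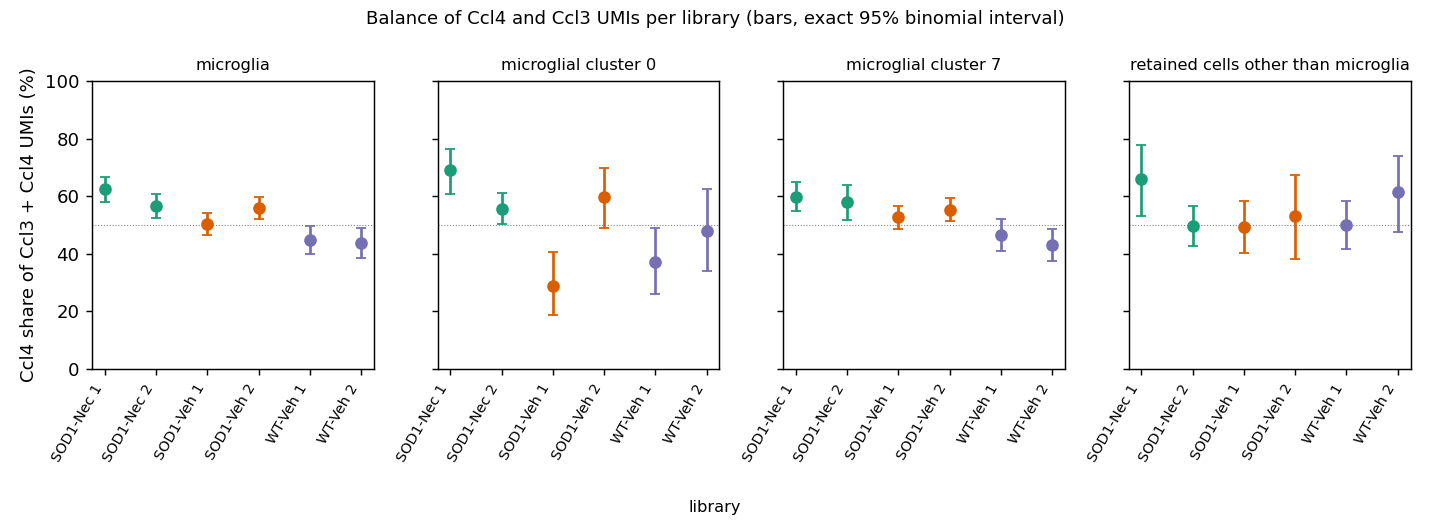
Ccl4 as a percentage of Ccl3 plus Ccl4 UMIs per library (points) with its exact 95% binomial interval (bars), in microglia, in each microglial cluster and in the other retained cells; the dotted line marks equal counts. In microglia the SOD1-Nec and SOD1-Veh points lie between 50.2% and 62.4% and the WT-Veh points at 44.8% and 43.7%.

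Microglia fell into 2 clusters, whose shares differed between libraries, so levels are also given within each. The split depended on the processing. At resolution 0.5 microglia were 1 cluster of 630 cells. With doublets removed, the cluster led by Ccl3, Jun and Ccl4 held 371 cells, against 224 in cluster 7 here. Cluster 0, led by C1qb, Trem2 and Siglech, held 88 and 134 of the microglia counted above in SOD1-Nec, 44 and 39 in SOD1-Veh, and 62 and 42 in WT-Veh. The other cells formed cluster 7, whose leading genes were Ccl4 and Ccl3 themselves, though neither was used in clustering, followed by Jun, Adamts1, Egr1 and Atf3, and which had a median of 1060 UMIs per cell against 460 in cluster 0. Immediate-early genes were thus among the leading genes. Several genes of their list, given below, fell in SOD1-Nec against both other groups, while none was called in SOD1-Veh against WT-Veh. What set the clusters apart was not tested, so the cluster sizes are not a result. In cluster 7 Ccl4 stood at 6521 and 4834 CPM in SOD1-Nec, 5401 and 7260.2 in SOD1-Veh, and 3372 and 2068 in WT-Veh. In cluster 0 it stood at 2189.8 and 2799 CPM in SOD1-Nec, 774 and 2503 in SOD1-Veh, and 819 and 1081 in WT-Veh. Both clusters of SOD1-Nec lay above WT-Veh, and SOD1-Veh did so in cluster 7 but overlapped WT-Veh in cluster 0.

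Ccl3 in cluster 7 stood at 4366 and 3513 CPM in SOD1-Nec, 4839 and 5872 in SOD1-Veh, and 3885 and 2747 in WT-Veh. In cluster 0 it stood at 983 and 2225 CPM in SOD1-Nec, 1918 and 1684 in SOD1-Veh, and 1395 and 1168 in WT-Veh, so SOD1-Nec spanned the SOD1-Veh range there. Ccl6 in cluster 0 stood at 335 and 279.9 CPM in SOD1-Nec, 811 and 956 in SOD1-Veh, and 212 and 346 in WT-Veh. In cluster 7 it stood at 259 and 935 CPM in SOD1-Nec, 363 and 705 in SOD1-Veh, and 256 and 154 in WT-Veh. The Ccl4 share of Ccl3 and Ccl4 UMIs in cluster 7 was 59.9% and 57.9% in SOD1-Nec, 52.7% and 55.3% in SOD1-Veh, and 46.5% and 42.9% in WT-Veh, the same order of groups as over all microglia. In cluster 0 it was 69.0% and 55.7% in SOD1-Nec, 28.8% and 59.8% in SOD1-Veh, and 37.0% and 48.1% in WT-Veh, and SOD1-Veh 1 stood below every other library.

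The share of microglia with a UMI was set after each cell was thinned to 300 UMIs, which left out 13 and 3 SOD1-Nec cells, 0 and 2 SOD1-Veh cells, and 3 and 2 WT-Veh cells. A Ccl4 UMI was then found in 35.8% and 32.2% of SOD1-Nec microglia, 35.7% and 45.3% of SOD1-Veh microglia, and 24.0% and 25.8% of WT-Veh microglia. The groups with the transgene lay above WT-Veh in every library, though the exact intervals of single libraries overlapped in all pairs but SOD1-Veh 2 (33.8% to 57.3%) and WT-Veh 1 (16.0% to 33.6%). Without thinning the Ccl4 shares were 45.4% and 43.2% in SOD1-Nec, 42.9% and 50.6% in SOD1-Veh, and 34.0% and 31.6% in WT-Veh. For Ccl3 the thinned shares were 25.5% and 34.2% in SOD1-Nec, 40.5% and 41.3% in SOD1-Veh, and 34.0% and 33.3% in WT-Veh, and without thinning 35.3% and 42.6%, 52.4% and 53.2%, and 38.8% and 48.4%. For Ccl6 they were 5.66% and 8.55% in SOD1-Nec, 9.52% and 10.7% in SOD1-Veh, and 6.00% and 5.38% in WT-Veh, from 5 to 13 cells per library, and the intervals of all libraries overlapped.

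As a measure of free RNA, B cells, which make little of either RNA at rest, had a Ccl4 UMI in 0.909% and a Ccl3 UMI in 0.455% of 440 cells at a median of 486 UMIs. Erythroid cells had them in 4.36% and 2.97% of 505 cells at a median of 1109 UMIs. Their 102 Ccl4 and 95 Ccl3 UMIs sat in only 22 and 15 cells, several to a cell on average. In barcodes under 100 genes Ccl4 stood at 5.66 to 44.4 CPM and Ccl3 at 5.66 to 38.1 CPM per library. These barcodes were not empty, with 310536 UMIs in 712 barcodes of SOD1-Nec 1 and 353251 in 639 of SOD1-Nec 2. So many UMIs on few genes lower the CPM of other RNAs, so these values do not measure free RNA. Over all microglia, at a median of 588 UMIs and without thinning, the shares were 41.2% for Ccl4, 44.1% for Ccl3, 22.9% for Ccl12, 19.3% for Ccl2, 16.3% for Ccl6, 9.64% for Ccl9, 5.21% for Cxcl10, 1.90% for Cxcl2 and 0.316% for Ccl5. Both Ccl3 and Ccl4 were found in 15.1% and 19.1% of thinned SOD1-Nec microglia, 20.2% and 33.3% of SOD1-Veh microglia, and 13% and 15.1% of WT-Veh microglia. A UMI of 3 or more of the 9 members was found in 8.49% and 9.87% of thinned SOD1-Nec microglia, 14.3% and 21.3% of SOD1-Veh microglia, and 8% and 9.68% of WT-Veh microglia. On both counts the 2 SOD1-Veh libraries were the highest, which was not tested.

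**Figure D5:**
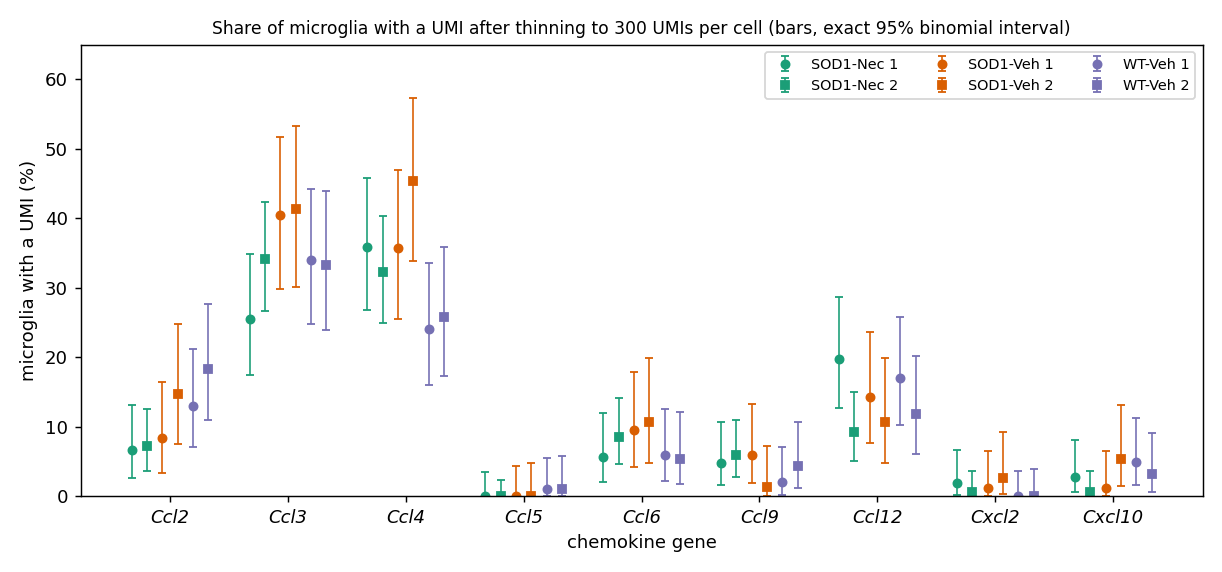
Percentage of microglia with at least 1 UMI of each chemokine after thinning to 300 UMIs per cell, per library (circles, replicate 1; squares, replicate 2), with exact 95% binomial intervals as bars. For Ccl4 the SOD1-Nec and SOD1-Veh libraries lie between 32.2% and 45.3% and the WT-Veh libraries at 24.0% and 25.8%, and bars overlap for all pairs but SOD1-Veh 2 and WT-Veh 1.

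Cxcl2 and Ccl5 did not reach the count minimum of the test in microglia. Cxcl2 had 5 and 10 UMIs in SOD1-Nec microglia, 10 and 13 in SOD1-Veh, and 1 and 0 in WT-Veh. These UMIs sat in 3 and 2 cells of SOD1-Nec, 4 and 2 of SOD1-Veh, and 1 and 0 of WT-Veh, so few cells carry the difference. Relative to microglial UMIs the summed ratio was 14.1 for SOD1-Nec over WT-Veh (exact 95% interval 2.17 to 593) and 24.7 for SOD1-Veh over WT-Veh (4.0 to 1016), intervals that cover counting error only. For SOD1-Nec over SOD1-Veh it was 0.572 (0.277 to 1.14). With no count filter edgeR called Cxcl2 in SOD1-Veh against WT-Veh (adjusted p = 0.00250). The neutrophil marker list stood at 716 and 425 CPM in SOD1-Nec microglia, below both other groups as given above, and its part in Cxcl2 was not tested. Ccl5 had 0 UMIs in SOD1-Nec and SOD1-Veh microglia and 2 and 1 in WT-Veh.

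Outside microglia the test covered Ccl2, Ccl6, Ccl9 and Cxcl2 in monocytes, Ccl3, Ccl4, Ccl6 and Cxcl2 in neutrophils, Ccl3 and Ccl4 in erythroid cells, and no member in B cells. No member was called by edgeR in any of these in any comparison, nor by DESeq2. At an unadjusted p under 0.05 edgeR had 3 neutrophil members in SOD1-Nec against SOD1-Veh, 2 in SOD1-Veh against WT-Veh and 1 in SOD1-Nec against WT-Veh, of 4 tested, while 12.4%, 4.33% and 14.5% of all neutrophil genes tested passed that threshold in the same order of comparisons. In monocytes and erythroid cells 0 members passed it. The share of all genes called in neutrophils was 0% in SOD1-Nec against SOD1-Veh, 0.12% in SOD1-Veh against WT-Veh and 0.12% in SOD1-Nec against WT-Veh. In monocytes it was 0.967%, 1.23% and 0.088% in the same order of comparisons, and in erythroid cells 1.35%, 0.0713% and 1.5%.

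In neutrophils Ccl4 had 11 and 15 UMIs in SOD1-Nec, 0 and 1 in SOD1-Veh, and 19 and 8 in WT-Veh. The 2 SOD1-Veh libraries were the lowest. The ratio of summed CPM was 16.5 for SOD1-Nec over SOD1-Veh (exact 95% interval 2.71 to 677) and 0.0625 for SOD1-Veh over WT-Veh (0.00153 to 0.379). These intervals cover counting error only, the 54 Ccl4 UMIs of the class sat in 23 cells, and edgeR called neither difference. Ccl3 was also lowest in SOD1-Veh, with 2 and 23 UMIs in SOD1-Nec, 1 and 1 in SOD1-Veh, and 20 and 9 in WT-Veh. Ccl6 had 20 and 34 UMIs in SOD1-Nec, or 358 and 414 CPM, 33 and 50 in SOD1-Veh, or 652 and 1348 CPM, and 69 and 30 in WT-Veh, or 763 and 521 CPM. It gave -1.24 ± 0.41 for SOD1-Nec against SOD1-Veh (edgeR adjusted p = 0.206). Cxcl2, the ligand of the neutrophil receptor Cxcr2, had 25 and 8 UMIs in SOD1-Nec neutrophils, 17 and 24 in SOD1-Veh, and 52 and 37 in WT-Veh, and gave -1.22 ± 0.53 for SOD1-Nec against WT-Veh (adjusted p = 0.324).

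Neutrophils were 2 clusters that held different shares of the class in each group. Cluster 11, led by Retnlg, Mmp8 and Cxcr2 and with Cxcl2 among its 10 leading genes, held 16 and 13 cells in SOD1-Nec, 23 and 22 in SOD1-Veh, and 33 and 16 in WT-Veh. Cluster 2, led by the granule genes Camp, Ngp and Ltf, held 62 and 66 cells in SOD1-Nec, 28 and 28 in SOD1-Veh, and 59 and 45 in WT-Veh. Ccl6 sat almost wholly in cluster 11, with 18 and 32 UMIs in SOD1-Nec, 28 and 50 in SOD1-Veh, and 64 and 28 in WT-Veh, against 0 to 5 per library in cluster 2. Within cluster 11 it stood at 1919.8 and 4793 CPM in SOD1-Nec, 1781 and 3758 in SOD1-Veh, and 2958 and 3162 in WT-Veh, and all 3 groups overlapped. Cxcl2 within cluster 11 stood at 1706 and 749 CPM in SOD1-Nec, 763 and 1127 in SOD1-Veh, and 1664 and 2598 in WT-Veh. SOD1-Nec thus overlapped both other groups, while SOD1-Veh lay below WT-Veh without overlap, which was not tested. The lower class-wide levels of Ccl6 and Cxcl2 in SOD1-Nec were thus not seen without overlap in the cluster that holds most of both RNAs. Ccl4 in cluster 2 had 11 and 15 UMIs in SOD1-Nec, 0 and 0 in SOD1-Veh, and 15 and 8 in WT-Veh.

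In monocytes Ccl6 stood at 981 and 814 CPM in SOD1-Nec, 1443 and 1166 in SOD1-Veh, and 1342 and 1391 in WT-Veh, from 34 to 96 UMIs per library. SOD1-Nec lay lowest, and no comparison passed the test (edgeR adjusted p = 0.816 against SOD1-Veh and 0.862 against WT-Veh). Ccl9 stood at 595 and 505 CPM in SOD1-Nec, 562 and 686 in SOD1-Veh, and 783 and 629 in WT-Veh. Myeloid progenitors had no cluster of their own here. With chemokine genes kept in clustering they formed a cluster of 51 cells, and monocytes numbered 292 against 332 here. That cluster held 13 and 21 cells in SOD1-Nec, 2 and 4 in SOD1-Veh, and 7 and 4 in WT-Veh. The part of progenitors in the monocyte levels was not tested. In erythroid cells 53 of the Ccl9 UMIs of WT-Veh 1 sat in 4 cells, and 1 cell held 50 of them, against 0 to 2 UMIs in each other library. Ccl9 was called lower in SOD1-Nec and in SOD1-Veh than in WT-Veh in 4 of the 6 fits of erythroid cells that left out a library, and in none that left out WT-Veh 1. Without SOD1-Veh 2, Ccl3 in erythroid cells and Ccl2 in monocytes were called lower in SOD1-Veh than in WT-Veh (adjusted p = 0.00591 and 0.0449) and Ccl3 in erythroid cells higher in SOD1-Nec than in SOD1-Veh (0.00374). SOD1-Veh 1, then alone, had 0 UMIs of both, so no fold is given. Ccl3 in erythroid cells was called lower in SOD1-Veh than in WT-Veh also without WT-Veh 2 (0.0417), and Ccl6 there higher in SOD1-Nec than in WT-Veh without SOD1-Veh 1 (0.0294).

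Over all retained cells, where a change in the makeup of cells and a change within cells cannot be told apart, edgeR called no member of 9 in any comparison. All genes called were 0.483% in SOD1-Nec against SOD1-Veh, 0.684% in SOD1-Veh against WT-Veh and 0.0402% in SOD1-Nec against WT-Veh, of 7457. At an unadjusted p under 0.05 there were 4, 2 and 3 members of 9, and 6.91%, 10.3% and 8.27% of all genes, in the same order of comparisons. DESeq2 called Ccl4 in SOD1-Veh against WT-Veh (1.18, adjusted p = 0.0111) and no other member. Ccl4 had 661 and 696 normalised CPM in SOD1-Nec, 922 and 945 in SOD1-Veh, and 467 and 362 in WT-Veh, and in edgeR gave 1.16 ± 0.27 for SOD1-Veh against WT-Veh (adjusted p = 0.0840, and 0.0499 without WT-Veh 1). Ccl5 had 61.4 and 57.9 normalised CPM in SOD1-Nec, 151 and 222 in SOD1-Veh, and 73.0 and 198 in WT-Veh, and gave -1.64 ± 0.43 for SOD1-Nec against SOD1-Veh (adjusted p = 0.226, and 0.0314 without WT-Veh 1 or 0.0209 without WT-Veh 2).

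Genes around the chemokines were followed in microglia through lists of their receptors, inducers and fellow responders. Other chemokines of the list, 18 of them measured, did not reach the count minimum. Of the chemokine receptors, Cx3cr1, the fractalkine receptor of microglia, stood at 2809.7 ± 286 normalised CPM in SOD1-Nec, 3172 ± 37.1 in SOD1-Veh and 4014 ± 181 in WT-Veh (SD, n = 2), and was not called in any comparison. Among 9 tested inducing cytokines and receptors, Csf1, a growth factor for macrophages, rose in SOD1-Veh against WT-Veh (2.16 ± 0.43, edgeR adjusted p = 0.000477). Ifngr1, a chain of the interferon-gamma receptor, fell in SOD1-Nec against WT-Veh by 0.96 ± 0.31 (adjusted p = 0.0411), where 2.98% of all genes tested fell. Tnf stood at 403 ± 91.0 normalised CPM in SOD1-Nec, 546 ± 79.7 in SOD1-Veh and 332 ± 58.9 in WT-Veh, and Il1a at 331 ± 83.0, 645 ± 137 and 512 ± 133 in the same order, neither of which passed a test.

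Of 8 tested genes of the NF-kappaB pathway and its feedback 0 were called in SOD1-Nec against SOD1-Veh, where their median log2 fold change was -0.66, or in SOD1-Veh against WT-Veh, where it was 0.31. In SOD1-Nec against WT-Veh 1 fell, Zfp36, which destabilises cytokine RNA and is also on the immediate-early list (-0.68 ± 0.21, edgeR adjusted p = 0.0342), and the median was -0.29. Of 2 tested interferon response genes, Irf1 and Ifi27l2a, none was called in any comparison. Of 20 tested genes of the immediate-early and dissociation response, which cells switch on during stress and enzymatic digestion, 6 fell in SOD1-Nec against SOD1-Veh and 0 rose, with a median of -0.62, where 1.46% of all genes fell. The 3 with the smallest p were Klf2 (-0.95 ± 0.21, adjusted p = 0.00259), Dusp1 (-0.91 ± 0.22, 0.00537) and Junb (-0.76 ± 0.20, 0.0161). In SOD1-Nec against WT-Veh 8 of the 20 fell and 0 rose, with a median of -0.61, where 2.98% of all genes fell, among them Dusp1 (-1.12 ± 0.21, adjusted p = 0.000269), Jun (-1.05 ± 0.20, 0.000296) and Fos (-0.84 ± 0.20, 0.00518). In SOD1-Veh against WT-Veh none was called, and the median was -0.04. The part of the 6 genes that fell beside Ccl3 in SOD1-Nec against SOD1-Veh was not tested.

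The sequence upstream of the start site was available from RefSeq for 6 of the 9 members (GRCm38.p6), and 4 are printed here as 150 bases, 5′ to 3′ on the strand of the gene, to show members that differ in their motifs. Capitals mark matches to the NF-kappaB consensus and to the AP-1 motif TGANTCA, the site of Jun and Fos. The 250 bases before each start were searched on both strands for these, for the core of the interferon-stimulated response element and for the TATA box TATAAA.
Cxcl10, chr5:92348890-92349039, minus strand: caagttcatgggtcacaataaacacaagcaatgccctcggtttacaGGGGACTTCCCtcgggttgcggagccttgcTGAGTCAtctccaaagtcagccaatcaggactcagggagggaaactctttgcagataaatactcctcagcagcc
Cxcl2, chr5:90903749-90903898, plus strand: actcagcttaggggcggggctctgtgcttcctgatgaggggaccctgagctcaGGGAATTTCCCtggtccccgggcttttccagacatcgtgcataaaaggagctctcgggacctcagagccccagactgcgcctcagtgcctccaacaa
Ccl3, chr11:83649379-83649528, minus strand: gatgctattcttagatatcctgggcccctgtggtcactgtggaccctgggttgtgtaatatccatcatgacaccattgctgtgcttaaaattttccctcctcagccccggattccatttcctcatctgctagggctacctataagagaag
Ccl6, chr11:83593088-83593237, minus strand: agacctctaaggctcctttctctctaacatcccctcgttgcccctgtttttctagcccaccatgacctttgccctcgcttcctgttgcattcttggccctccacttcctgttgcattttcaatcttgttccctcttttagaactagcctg
Cxcl10 had 3 NF-kappaB matches, of which a pair 104 to 94 bases before the start overlap and the third lies 159 to 150 bases before it, with an AP-1 match at 74 to 68 bases and an interferon element match at 213 to 204 bases. Cxcl2 had an overlapping pair of NF-kappaB matches on opposite strands, 97 to 87 bases before its start. Ccl9 had an NF-kappaB, an AP-1 and several TATA box matches, and Ccl12 a TATA box match at 31 to 26 bases, while Ccl3 and Ccl6 had no match to any of the 4 motifs in this window. Over 32851 promoters of the same length, 7.251% held the NF-kappaB consensus, 6.749% the AP-1 motif, 2.977% the interferon element core and 12.37% the TATA box. A match is a description of the letters and not evidence of a site in use.

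Genes whose level followed a chemokine most closely across 14 classes were named from those with at least 200 UMIs, by Pearson correlation of log2(CPM + 10). The classes share libraries and depth, so the values are descriptions. For Ccl3 they were Cx3cr1 (0.94), Trem2 (0.94) and C1qc (0.93), and for Ccl4 Trem2 (0.94), Cx3cr1 (0.94) and Golm1 (0.93). Ccl12 went with Bcl2a1b (0.91), C1qb (0.91) and Siglech (0.90), and Ccl2 with Cd68 (0.95), Cd14 (0.95) and Klf4 (0.95). Ccl6 went with Lgals3 (0.96), Alox5ap (0.95) and Clec4a2 (0.95), Ccl9 with Mpeg1 (0.89), Ms4a6c (0.88) and Ftl1 (0.88), and Cxcl2 with Zyx (0.94), Clec4a2 (0.93) and Lyz2 (0.92). Ccl5 had no close follower among genes with 200 UMIs, the nearest being Jak1 at 0.60. The T or NK cell markers together had 101 to 152 UMIs per library, so few of them could enter this search. Trbc2, Ms4a4b, Nkg7 and Gzma were leading genes of the T or NK cell cluster beside Ccl5. Among the members themselves, with no minimum of UMIs, Ccl3 and Ccl4 (0.95) and Ccl12 and Cxcl10 (0.94) were the closest pairs. Cxcl10 had only 90 UMIs in retained cells, 71 of them in microglia, so its value rests on few counts.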

How the data were processed

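The authors deposited 1 table of raw UMI counts, genes by barcodes, for each of the 6 libraries, made by the Drop-seq protocol per the labels. The submitters' processing notes name the mouse build mm9; no aligner or counting rule is stated. The count tables hold gene symbols without coordinates. Members and gene lists were chosen with earlier results of these data known.

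Cells with at least 200 genes and at most 20% mitochondrial UMIs (3360 of 21919 barcodes) were clustered in scanpy 1.11.5 (2000 variable genes, 30 components, 15 neighbours, leidenalg 0.10.2, resolution 1) and named when at least 3 markers of a class were among the 50 leading genes and more of them among the 10 leading genes than for any other class. Scrublet marked 29 doublets, which were kept and removed in an alternative. UMIs were summed by library and class, for classes of 20 or more cells in each library, and tested by quasi-likelihood in edgeR 4.0.16 under R 4.3.3 (TMM, filterByExpr, 1 fit of the 3 groups), with Benjamini-Hochberg adjustment over all genes tested and a threshold of 0.05; DESeq2 1.42.0 was an alternative. The script was tested on simulated data. Receptors, inducers and other list genes were named as the 3 with the smallest p per comparison; 1 gene of these lists is not reported here. Intervals are exact 95% binomial, or exact for a ratio of counts.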

Additional observations from a re-analysis of the deposited data

Results flagged for a closer look

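Barcodes with at least 200 genes but over 20% mitochondrial UMIs entered no comparison, and 4 of 8 members detected there had a higher level in both SOD1-Nec libraries than in either WT-Veh library, as had 15.1% of all 13057 genes detected. Ccl3 averaged 59.9 CPM in SOD1-Nec, from 10 and 5 UMIs, against 3 and 3 UMIs in SOD1-Veh and 3 and 0 in WT-Veh. Ccl4 averaged 83.0 CPM in SOD1-Nec, from 15 and 6 UMIs, against 3 and 2 in SOD1-Veh and 3 and 2 in WT-Veh. Ccl5 averaged 67.3 CPM in SOD1-Nec, from 12 and 5 UMIs, against 0 and 1 in SOD1-Veh and 1 and 0 in WT-Veh. Ccl9 averaged 8.26 CPM in SOD1-Nec, from 1 and 1 UMIs, against 0 and 0 in SOD1-Veh and 1 and 0 in WT-Veh, so it rests on single UMIs. These barcodes numbered 222 and 187 in SOD1-Nec, 276 and 218 in SOD1-Veh, and 235 and 256 in WT-Veh. No test was made, and the counts are small.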

How the results depend on the processing

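Each of the 7 tested microglial members was refitted under 16 alternatives per comparison, and no call reversed. The call of Ccl4 in SOD1-Veh against WT-Veh held in all 16 (0.89 to 1.5). Of members in microglia, the 1 call in SOD1-Nec against SOD1-Veh became 0 with no count filter, the replicate block, at least 400 genes per cell, a 10% mitochondrial limit, doublets removed or chemokine genes kept in clustering; the 3 in SOD1-Veh against WT-Veh became 1 with DESeq2; the 1 in SOD1-Nec against WT-Veh became 2 at 400 genes per cell or with chemokine genes kept. Of all genes in microglia, the 59, 32 and 112 calls of these comparisons became 35, 16 and 47 with DESeq2, 25, 20 and 60 at 400 genes, and the last 68 with no filter. Over all cells, the 36, 51 and 3 calls became 23, 22 and 1 with no filter, the first 2 became 0 and 6 without muscle cells, and the third 10 with DESeq2 and 5 with the block; members called became 1 at 400 genes (Ccl5, SOD1-Nec against SOD1-Veh) and 1 with DESeq2 (Ccl4). With no filter, 1 erythroid member (Ccl9) was called in each comparison with WT-Veh, and Cxcl2 was called in SOD1-Veh microglia against WT-Veh (adjusted p = 0.00250). The causes were not tested.

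Leaving out each library gave, for SOD1-Nec against SOD1-Veh, SOD1-Veh against WT-Veh and SOD1-Nec against WT-Veh, 0 to 2, 2 to 3 and 0 to 2 microglial members, 28 to 75, 25 to 36 and 44 to 133 microglial genes, 0 to 1, 0 to 1 and 0 members over all cells, 22 to 49, 26 to 154 and 1 to 42 genes over all cells, and 0 to 1, 0 to 3 and 0 to 2 members in other classes. The SOD1-Nec 1 library listed 18169 genes and SOD1-Nec 2 listed 18650. Deviations of same-numbered libraries correlated at -0.03, -0.04 and -0.02 over 1579 microglial genes, so no pairing by number was seen there. Whether same-numbered libraries share a batch cannot be told from these values. Beside the counts above the block changed no count past 1.5 times. Of 54 thinned shares, 16 moved outside their interval at 500 UMIs and 21 with no thinning. At 400 genes no other class kept 20 cells in every library.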
